A study of Caenorhabditis elegans with 58 samples.

Results

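The mir-2 family members mir-2, mir-250 and mir-797 of the nematode Caenorhabditis elegans were followed through 58 small RNA libraries. The members were chosen by name: a feature belonged if its name, without the ending that marks the arm, was mir-2, mir-250 or mir-797. This gave 6 mature arms of the 276 in the count table, from 3 hairpins of 138. Each hairpin has a 3p arm, unstarred by annotation and called the guide, and a 5p arm marked with an asterisk as the star. All 6 arms and all 3 hairpins had enough counts to be tested in each comparison described here.

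The libraries came from whole hermaphrodites in 15 groups, with 3 or 4 libraries a group, and fell into 3 experiments. In experiment 1, strain MCJ275, which carries alg-2(cdb155) and alg-1(cdb153), was set against the N2 wild type in embryos (4 libraries each), L4 larvae (3 each) and young adults (4 each). Both alleles replace the first residue of the catalytic tetrad, so that DEDH becomes AEDH, and the strain is called double AEDH below. In experiment 2, all in young adults with 4 libraries a group, there were 5 mutant groups besides N2: double AEDH; ebax-1(tm2321), labelled as a null; the same null with double AEDH (MCJ354); Y47H10A.5(cdb188), in which a mir-243 binding site is deleted; and Y47H10A.5(cdb190) with double AEDH (MCJ352). In experiment 3, embryos of alg-1(AEDH) alone (MCJ277), of alg-2(AEDH) alone (MCJ288) and of N2 had 4 libraries each. Embryos were of mixed stages and came from animals kept at 20 °C. L4 larvae were harvested after 48 h at 20 °C, and young adults after 44 h at 25 °C. Stage therefore cannot be told apart from harvest or, in comparisons with young adults, from temperature. The alleles act in every cell that carries the gene, each combination is represented by 1 strain, and miRNA counts do not show the alleles themselves, so genotypes stand as labelled.

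MicroRNAs are cut from a hairpin as a duplex of both arms. An Argonaute protein keeps the guide and the star strand is usually discarded; ALG-1 and ALG-2 are the main microRNA Argonautes of C. elegans, and their catalytic tetrad allows them to cut a well-paired strand. Guides of a family share a seed, the bases near the 5′ end that select targets. The annotation leaves the 3p arms of the 3 members unstarred, as guides. Sequences were not at hand, so which arm of each hairpin carries the family seed was not checked. Members of the family are known in many invertebrates, and in Drosophila they repress genes that promote cell death. EBAX-1 is the substrate receptor of a ubiquitin ligase needed for target-directed microRNA degradation, in which a highly complementary target exposes an Argonaute and its microRNA to destruction. The study asked how loss of slicing affects microRNAs, and used the ebax-1 null to stop this degradation for all microRNAs and the Y47H10A.5 deletion to stop it for mir-243.

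The 3 hairpins lie on different chromosomes (build WBcel235, the same assembly as ce11). The mir-2 hairpin spans 64 bases at I:9372783-9372846 on the minus strand, inside an intron of ppfr-1 on the same strand, and its nearest annotated hairpin is mir-71, 7100 bases away. The mir-250 hairpin spans 63 bases at V:11769936-11769998 on the minus strand, outside protein-coding genes, 36 bases from sel-11 and 77 bases from the mir-61 hairpin on the same strand. The mir-797 hairpin spans 64 bases at X:4757123-4757186 on the plus strand, outside protein-coding genes and 70 bases from mir-247 on the same strand. The annotated 3p arms are 23, 21 and 23 bases long for mir-2, mir-250 and mir-797, and the 5p arms 22, 22 and 25 bases. mir-43, which shares the family seed but is not one of the 3, lies at II:11889930-11889992 on the plus strand, 38 bases from mir-42, and is given below for comparison.

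Libraries held between 4806008 and 21076792 counts on microRNA arms, so that 3 counts stand for 0.142 to 0.624 CPM by raw library size. Levels below are in CPM, counts scaled to a common library size, and are further corrected for library composition. The closest of 84 pairs of replicates still differed by 122 times the sampling noise (chi-square per degree of freedom). The stage labels fitted the marker arms: the summed 3p arms of 7 mir-35 family hairpins, an embryonic family, were at 513944 to 629699 CPM in wild-type embryos, 4768 to 5180 in L4 larvae and 51250 to 95687 in young adults. The sum of 5 arms that mark late larvae and adults was at 289 to 708 CPM in wild-type embryos and at 55607 to 64856 CPM in L4 larvae, and the highest embryo value was in wild-type embryo replicate 2. Whether each replicate was a culture of its own is not stated, so the p-values cover the spread among libraries, which may be technical.

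The family was a small part of the microRNA pool. The 6 arms together took 0.046 to 0.213% of arm counts over the 58 libraries, with wild-type means of 0.0497% in embryos, 0.0952% in L4 larvae and 0.143% in young adults of experiment 1. mir-2 gave 58.4% of the family's counts in wild-type embryos, 27.5% in L4 larvae and 20.3% in young adults. mir-250 gave 40.9%, 65.5% and 79.0% in the same order of stages, and mir-797 gave 0.703%, 6.97% and 0.725%. Among the 276 arms, mir-2_3p ranked 61, 80 and 74 by level over these stages, mir-250_3p ranked 76, 66 and 54, and mir-797_5p* ranked 186, 121 and 193.

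**Figure D1:**
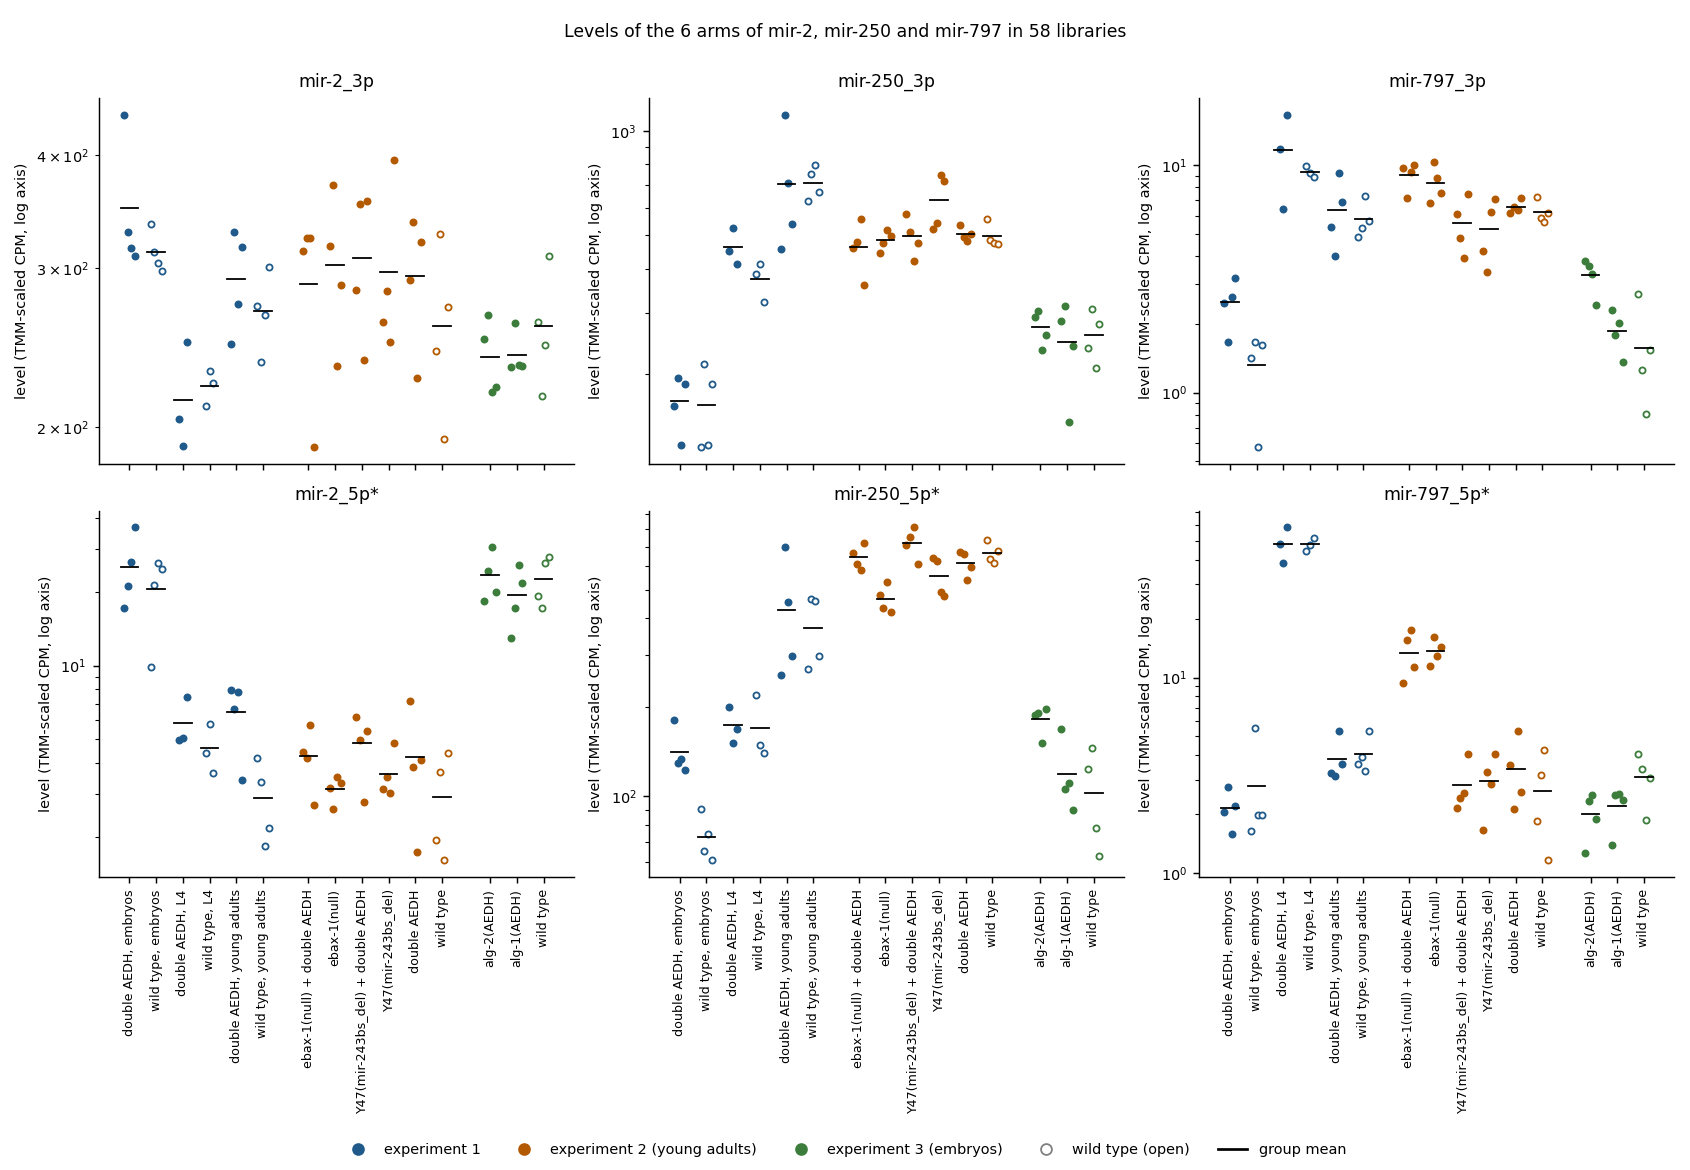
Level of each member arm in every library, in CPM on a log axis, for the 15 groups in 3 experiments; each point is 1 library, bars are group means and open circles are wild type. The 3 wild-type L4 libraries of mir-797_5p* sit between 44.3 and 51.9 CPM, above every other wild-type library of experiment 1, and the 4 ebax-1 libraries sit between 11.5 and 16.1 CPM, above the 4 wild-type young adults of experiment 2.

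In wild-type development each hairpin had its own course. mir-250 increased from stage to stage on both arms, mir-797 was highest in L4 larvae, and mir-2 kept its guide within a narrow range while its star fell. The stage comparisons were made with edgeR's quasi-likelihood test on all arms, and a member is said to have risen or fallen where the Benjamini-Hochberg adjusted p was under 0.05. All 6 arms passed between L4 larvae and embryos, where 79.4% of all tested arms passed. Between young adults and L4 larvae 3 of 6 passed, against 42.4% of all arms, and between young adults and embryos 4 of 6 passed, against 81.9%. DESeq2 called 5 of 6 in the last comparison, with mir-2_3p as the fifth.

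mir-250_3p was at 123, 214, 125 and 188 CPM in wild-type embryos, at 387, 413 and 323 CPM in L4 larvae, and at 627, 750, 795 and 667 CPM in young adults. The 3 stages did not overlap. On the log2 scale the guide rose by 1.20 between embryos and L4 larvae (95% interval 0.68 to 1.73, adjusted p = 2.14e-04) and by 0.92 between L4 larvae and young adults (0.38 to 1.47, adjusted p = 0.00676). mir-250_5p* followed, at 90.3, 65.4, 74.3 and 60.8 CPM in embryos, 219, 149 and 140 CPM in L4 larvae, and 269, 464, 457 and 298 CPM in young adults. Its changes were 1.22 (adjusted p = 6.60e-04) and 1.13 (adjusted p = 0.00409). The 2 rises between L4 larvae and young adults did not pass when libraries were scaled by their spike-in totals, where the guide's change was 0.38 (adjusted p = 0.229) and the star's 0.52 (adjusted p = 0.161).

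mir-2_3p was at 336, 313, 304 and 297 CPM in wild-type embryos, 211, 231 and 224 CPM in L4 larvae and 272, 236, 266 and 301 CPM in young adults. The L4 libraries were all below the other libraries, and the embryo and adult ranges overlapped. The guide fell by 0.49 on the log2 scale between embryos and L4 larvae (95% interval -0.81 to -0.18, adjusted p = 0.00550), but with total counts in place of composition scaling the change was -0.09 (adjusted p = 0.554), where the median of all arms moved to 0.55 from 0.15. Between young adults and L4 larvae it changed by 0.28 (adjusted p = 0.149). Between young adults and embryos it changed by -0.22 (95% interval -0.50 to 0.07, edgeR, adjusted p = 0.152), while DESeq2 called it lower in young adults (-0.39, adjusted p = 0.0116). That call depends on scaling and filter: the change was -1.09 (adjusted p = 5.94e-04) with spike-in totals, -0.49 (adjusted p = 0.00221) with no filter and 0.07 (adjusted p = 0.645) with total counts.

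The mir-2 star was far less abundant, at 9.87, 21.3, 26.3 and 24.7 CPM in wild-type embryos, 4.38, 5.77 and 3.66 CPM in L4 larvae and 4.22, 3.36, 1.83 and 2.17 CPM in young adults. Every embryo library was above every later one. It fell by 2.15 on the log2 scale between embryos and L4 larvae (adjusted p = 3.65e-05), and its change of -0.68 between L4 larvae and young adults did not pass (adjusted p = 0.173). The star share, the star's percentage of both arms' counts, was 6.22 ± 2.34% in wild-type embryos (SD, n = 4), 2.03 ± 0.414% in L4 larvae (SD, n = 3) and 1.08 ± 0.444% in young adults (SD, n = 4). The star-to-guide ratio of mir-2, tested with limma on the log2 scale, fell by 1.58 between embryos and L4 larvae (adjusted p = 0.00581), where 46.2% of tested hairpins passed, and by 2.57 between embryos and young adults (adjusted p = 1.64e-05), where 60.2% passed.

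mir-797 had the sharpest course, and on the arm annotated as star. mir-797_5p* was at 1.64, 5.54, 1.97 and 1.98 CPM in wild-type embryos, 44.3, 47.6 and 51.9 CPM in L4 larvae, and 3.62, 3.92, 3.34 and 5.30 CPM in young adults. It rose by 4.11 on the log2 scale between embryos and L4 larvae (95% interval 3.42 to 4.82, adjusted p = 5.34e-10) and fell by 3.56 between L4 larvae and young adults (-4.24 to -2.88, adjusted p = 2.86e-08). Between young adults and embryos the change was 0.56 (adjusted p = 0.108), and it was 1.12 (adjusted p = 4.13e-04) without wild-type embryo replicate 2, the library with the highest sum of late-stage markers.

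The annotated guide of the same hairpin, mir-797_3p, was at 1.42, 1.66, 0.575 and 1.62 CPM in wild-type embryos, 9.95, 9.21 and 8.91 CPM in L4 larvae and 4.82, 5.32, 7.32 and 5.70 CPM in young adults. It rose by 2.82 on the log2 scale between embryos and L4 larvae (adjusted p = 3.80e-07), while its change of -0.69 between L4 larvae and young adults did not pass (adjusted p = 0.0942). The 2 arms therefore changed places: the star share of mir-797 was 65.8 ± 13.2% in wild-type embryos (SD, n = 4), 83.6 ± 1.85% in L4 larvae (SD, n = 3) and 41.2 ± 7.09% in young adults (SD, n = 4). The star-to-guide ratio rose by 1.37 between embryos and L4 larvae (adjusted p = 0.0100) and fell by 2.87 between L4 larvae and young adults (limma, adjusted p = 1.59e-05), where 25.8% of hairpins passed. Embryo counts of mir-797 were low, with 7 to 19 counts of the 3p arm and 22 to 60 of the 5p arm in a library.

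**Figure D2:**
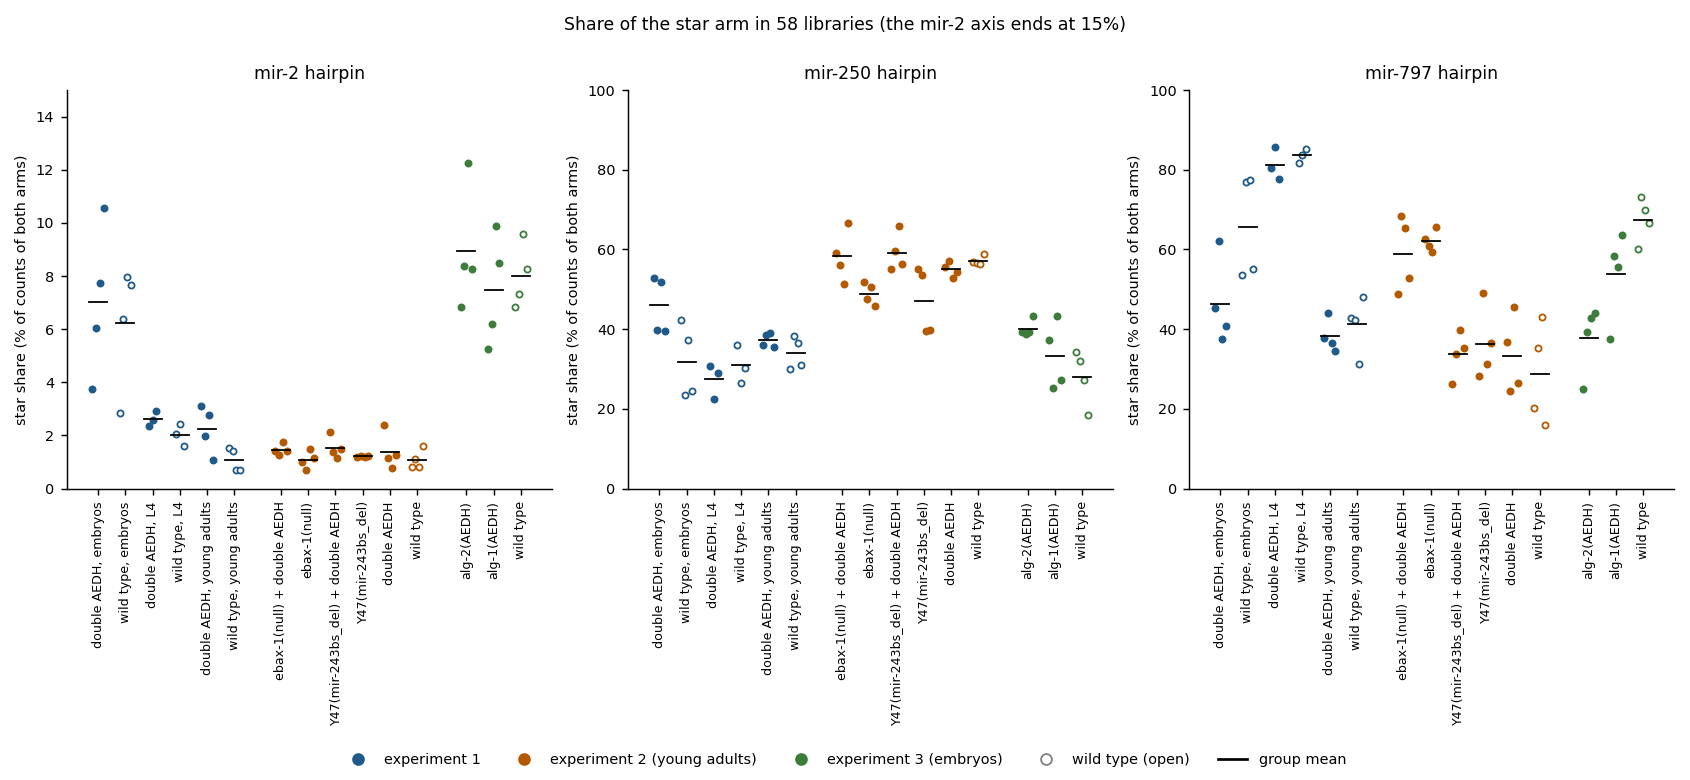
Star share of the 3 member hairpins, the star arm's percentage of both arms' counts, in every library of the 15 groups; each point is 1 library, bars are group means, open circles are wild type, and the mir-2 axis ends at 15%. mir-797 is at 83.6% on average in wild-type L4 larvae, against 41.2% in the young adults of the same experiment, and mir-2 is below 10% on average in every group.

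mir-250 held its star share over wild-type stages, at 31.9 ± 9.36% in embryos (SD, n = 4), 31.0 ± 4.83% in L4 larvae (SD, n = 3) and 33.9 ± 4.08% in young adults (SD, n = 4). The change in its ratio was -0.03 between L4 larvae and embryos (limma, 95% interval -0.65 to 0.59, adjusted p = 0.927). In the wild-type young adults of experiment 2, grown for the same time at the same temperature, the share was 57.2 ± 1.17% (SD, n = 4), with libraries at 56.8, 56.6, 56.4 and 58.9%, so the star outnumbered the guide there. The wild-type adults of experiment 1 were between 30.0 and 38.2%. The experiments were not tested against each other.

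The hairpins next to the members did not all follow them. Over wild-type stages mir-247_3p, next to mir-797, changed by 3.57 on the log2 scale between embryos and L4 larvae and by -4.12 between L4 larvae and young adults, beside 4.11 and -3.56 for mir-797_5p*. mir-61_3p, next to mir-250, changed by 0.28 and -0.02 over the same steps, beside 1.20 and 0.92 for mir-250_3p. mir-71_5p, the nearest guide to mir-2, changed by 3.39 and 0.67, beside -0.49 and 0.28 for mir-2_3p. mir-43_3p, the seed relative, was at 49.8 ± 9.09 CPM in wild-type embryos (SD, n = 4) and 5.05 ± 0.379 CPM in L4 larvae (SD, n = 3), a change of -3.30.

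Over the means of the 15 groups, likeness was measured as Pearson's r of log2(CPM + 1), as a description. Arms of at least 10 CPM from other hairpins were compared, and groups share experiments and stages. The closest to mir-250_3p were mir-66_5p (r = 0.960), mir-83_3p (0.944) and mir-248_3p (0.933), and to mir-797_3p they were mir-237_3p* (0.939), mir-84_3p* (0.936) and mir-230_3p (0.932). The closest to mir-2_3p were less alike, mir-41_3p (0.730), mir-41_5p* (0.718) and mir-37_5p* (0.674). Within hairpins r was 0.812 for the mir-250 arms, 0.705 for the mir-797 arms and 0.0516 for the mir-2 arms. The annotated guides thus had different courses, and the mir-2 guide did not follow its own star.

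The first question of the study was what the AEDH mutations do, and in embryos 1 member arm passed. mir-250_5p* was higher in double AEDH embryos, at 181, 129, 134 and 123 CPM, against 90.3, 65.4, 74.3 and 60.8 CPM in wild-type embryos. The groups did not overlap. The log2 fold change was 0.86 (SE 0.191, 95% interval 0.43 to 1.30, adjusted p = 0.0202), and 11.3% of all arms passed in this comparison. Among all tested arms, 16 of 83 stars rose with a median change of 0.44, and 1 of 129 arms not marked as stars rose with a median of -0.08. It did not pass when wild-type replicate 2, 3 or 4 or double AEDH replicate 3 was left out (0.78 to 0.85, adjusted p 0.0586 to 0.0834). With spike-in scaling the change was 0.68 (adjusted p = 0.321), where the median of all arms was -0.24 in place of -0.02.

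The guide of the same hairpin, mir-250_3p, was at 161, 195, 125 and 187 CPM in double AEDH embryos, against 123, 214, 125 and 188 CPM in wild-type embryos. Its change was -0.03 (95% interval -0.51 to 0.45). The star share of mir-250 was 52.8, 39.8, 51.8 and 39.6% in double AEDH embryos, against 42.3, 23.4, 37.2 and 24.5% in wild-type embryos, and the mutant was higher in each of the 4 numbered pairs. The ratio rose by 0.90 without reaching the threshold (limma, adjusted p = 0.0904), and it passed with the replicate number as a block (0.90, adjusted p = 8.34e-05). The block also moved mir-250_5p* itself to 0.88 (adjusted p = 1.87e-05), and the number of all arms called to 62 from 24. The neighbouring hairpin's arms, mir-61_5p* and mir-61_3p, changed by -0.15 and -0.05 without passing.

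By its annotated arms mir-797 moved the other way in double AEDH embryos, and passed only with the block. In wild-type embryos mir-797 had more of its annotated star than of its guide. Its star share was 45.3, 62.2, 37.5 and 40.7%, against 53.7, 76.9, 77.4 and 55.0% in wild-type embryos, lower in each of the 4 numbered pairs. The ratio changed by -1.18 (95% interval -2.32 to -0.04, adjusted p = 0.121), and by -1.18 with an adjusted p of 0.0400 in the block fit. mir-797_3p was at 2.47, 1.67, 2.63 and 3.20 CPM in double AEDH embryos, against 1.42, 1.66, 0.575 and 1.62 CPM in wild-type embryos, a change of 0.84 that did not pass (adjusted p = 0.237), and mir-797_5p* changed by -0.43. No ratio of the 3 hairpins passed in the fit without the block, where 23.3% of hairpins passed, and 2 had an unadjusted p under 0.05. The 5 late-stage marker arms were lower too in double AEDH embryos, by -0.74 to -0.11 on the log2 scale, and none of them passed; their part in the mir-797 values was not tested.

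Neither arm of mir-2 passed in embryos. mir-2_3p was at 443, 329, 316 and 310 CPM in double AEDH embryos, against 336, 313, 304 and 297 CPM in wild-type embryos, a change of 0.07 (95% interval -0.24 to 0.38). Each numbered pair was higher in the mutant, and replicate 1 of the mutant was above every other library. The block fit gave 0.07 (adjusted p = 0.579), and without that library the change was -0.02. mir-2_5p* was at 25.3 ± 8.40 CPM, against 20.5 ± 7.41 CPM (SD, n = 4 each), a change of 0.26.

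**Figure D3:**
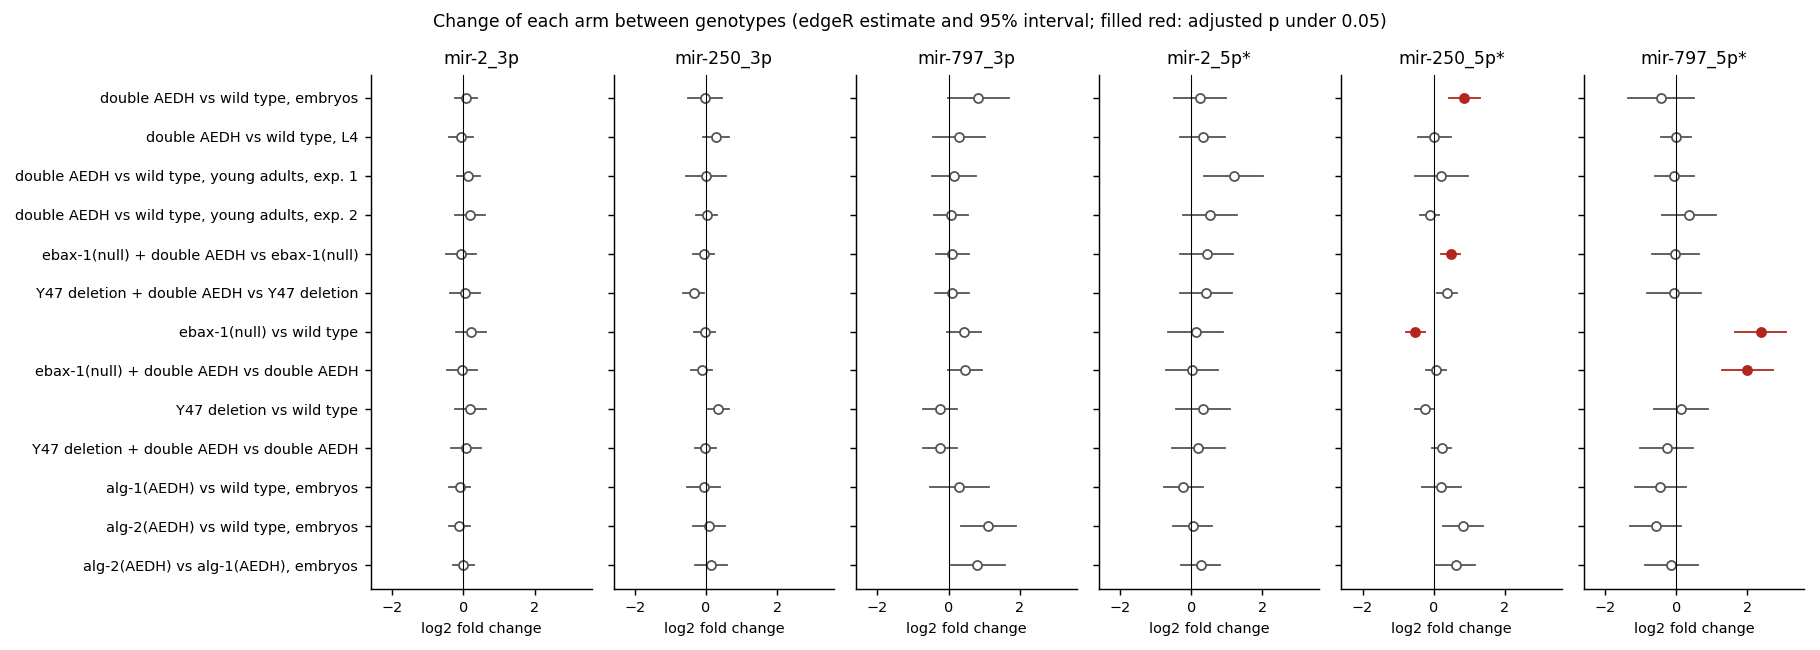
Log2 fold change of each member arm in the 13 comparisons of genotypes, with 95% intervals from edgeR; filled red points passed at an adjusted p under 0.05 and open points did not. The 5 points that passed are mir-250_5p* in double AEDH embryos (0.86), mir-797_5p* (2.37) and mir-250_5p* (-0.52) in ebax-1 adults, mir-797_5p* between ebax-1 with double AEDH and double AEDH (1.99), and mir-250_5p* between ebax-1 with double AEDH and ebax-1 (0.47).

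In L4 larvae no member arm passed (edgeR), against 4.93% of all arms; none had an unadjusted p under 0.05, and DESeq2 called 0. mir-250_5p* was at 201, 151 and 169 CPM in double AEDH L4 larvae, against 219, 149 and 140 CPM in wild-type L4 larvae. Its change was 0.02 (95% interval -0.44 to 0.48), and the ranges overlapped. mir-797_5p* was at 48.1, 38.5 and 58.5 CPM, against 44.3, 47.6 and 51.9 CPM, a change of -0.01. The other arms changed by 0.29 (mir-250_3p), -0.07 (mir-2_3p), 0.32 (mir-2_5p*) and 0.29 (mir-797_3p). The replicate block raised the number of all arms called to 26 from 11, with no member among them. No ratio passed (14.3% of hairpins did), and none had an unadjusted p under 0.05.

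In young adults of experiment 1 again no member arm passed by edgeR, against 1.36% of all arms, and 1 had an unadjusted p under 0.05. That arm was mir-2_5p*, at 7.95, 6.67, 7.83 and 3.41 CPM in double AEDH adults, against 4.22, 3.36, 1.83 and 2.17 CPM in wild-type adults. Each numbered pair was higher in the mutant, while the groups overlapped through mutant replicate 4. The change was 1.19 (95% interval 0.36 to 2.03, adjusted p = 0.170). With the replicate block it was 1.16 (adjusted p = 0.0298), DESeq2 called it (1.18, adjusted p = 0.0427), and without double AEDH replicate 4 it was 1.40 (adjusted p = 0.0476). The block gave 14 calls among all arms in place of 3. The other member arms changed by 0.01 (mir-250_3p), 0.14 (mir-2_3p), 0.16 (mir-797_3p) and -0.06 (mir-797_5p*).

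The mir-2 ratio in these adults rose by 1.03 (limma, adjusted p = 0.169), and passed with the block (adjusted p = 0.0248); 5.56% of hairpins passed without it. The star share of mir-2 was 2.24 ± 0.912% in double AEDH adults, against 1.08 ± 0.444% in wild-type adults (SD, n = 4 each). In experiment 2, with the same 2 genotypes at the same stage, mir-2_5p* was at 7.16, 3.87, 1.74 and 4.13 CPM in double AEDH adults, against 1.94, 3.69, 1.61 and 4.38 CPM in wild-type adults. There the change was 0.54 (95% interval -0.22 to 1.30, adjusted p = 0.521). No member arm passed in that comparison by edgeR, against 7.96% of all arms, 0 had an unadjusted p under 0.05, DESeq2 called 0, and no ratio passed (9.78% of hairpins did). There mir-250_3p changed by 0.01, mir-2_3p by 0.18, mir-797_3p by 0.08 and mir-797_5p* by 0.35.

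mir-250_5p* therefore passed in double AEDH embryos and not at the later stages, and the difference itself was tested. Its change in young adults of experiment 1 was 0.22 (95% interval -0.51 to 0.95), with 257, 696, 454 and 299 CPM in double AEDH adults, against 269, 464, 457 and 298 CPM in wild-type adults, and in experiment 2 it was -0.11 (-0.38 to 0.16). L4 larvae minus embryos gave -0.92 for the double AEDH effect (adjusted p = 0.704), and young adults minus embryos gave -0.76 (adjusted p = 0.722). In the fit with the replicate number within each stage as a block, these were -0.91 (adjusted p = 0.00309) and -0.83 (adjusted p = 0.00137). The ratio of mir-250 behaved alike, with -1.15 (adjusted p = 0.195, block 0.00823) and -0.68 (adjusted p = 0.375, block 0.0246). Without the block 0.42% of arms passed for L4 larvae minus embryos and 1.26% for young adults minus embryos, and of ratios 0% and 6.45%, so few features of any kind passed there.

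Experiment 3 separated the Argonautes in embryos. In alg-1(AEDH) embryos no member arm passed by edgeR, against 0.508% of all arms, with 0 at an unadjusted p under 0.05 and 0 by DESeq2. mir-250_5p* was at 169, 106, 111 and 90.1 CPM in alg-1(AEDH) embryos, against 124, 146, 77.8 and 62.9 CPM in wild-type embryos, a change of 0.21 (95% interval -0.34 to 0.77). The other arms changed by -0.07 (mir-250_3p), -0.11 (mir-2_3p), -0.22 (mir-2_5p*), 0.30 (mir-797_3p) and -0.44 (mir-797_5p*). No ratio passed, against 10.8% of hairpins. With the replicate block 8 of all arms passed in place of 1, with no member among them.

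In alg-2(AEDH) embryos the star-to-guide ratios of 2 of the 3 hairpins passed, in opposite directions by the annotated arms. Of all hairpins 41.9% passed, 39.2% upward and 2.7% downward. The annotated star of mir-797 was its more abundant arm in these wild-type embryos (67.4%), and the star of mir-250 its less abundant arm (28.0%). In both hairpins the ratio thus moved toward the arm that was less abundant in the wild type. The mir-250 share was 39.3, 38.7, 39.2 and 43.2% in alg-2(AEDH) embryos, against 34.3, 32.1, 27.1 and 18.4% in wild-type embryos, and the groups did not overlap. The ratio rose by 0.82 (limma, 95% interval 0.20 to 1.44, adjusted p = 0.0341), beside a median of 0.58 over all hairpins. It ranged from 0.57 to 0.97 with 1 library left out, and lost the call without wild-type replicate 3 or 4 or any 1 of the alg-2(AEDH) libraries (highest adjusted p 0.109).

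The mir-797 share was 25.0, 39.4, 42.9 and 44.0% in alg-2(AEDH) embryos, against 60.0, 73.1, 70.0 and 66.7% in wild-type embryos. These groups did not overlap either. The ratio fell by 1.73 (95% interval -2.62 to -0.84, adjusted p = 0.00585) and kept its call under the 12 alternatives that could be run. This is the direction seen in the double AEDH embryos of experiment 1, which have their own wild-type libraries. There the change was -1.18 and did not pass without the block (limma, adjusted p = 0.121). In alg-1(AEDH) embryos, set against the same wild-type libraries, the ratio changed by -0.80 without passing (95% interval -1.69 to 0.09, adjusted p = 0.261). The fall in alg-2(AEDH) embryos rests on few reads. An alg-2(AEDH) library held 14 to 24 counts of mir-797_3p and 6 to 18 of mir-797_5p*. A wild-type library held 6 to 12 and 14 to 22. The 4 tested late-stage marker arms changed by -0.59 to 0.09 in alg-2(AEDH) embryos and none passed, and their part was not tested.

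By level, no member arm passed in alg-2(AEDH) embryos by edgeR, against 4.06% of all arms; 2 had an unadjusted p under 0.05 and DESeq2 called 1. mir-250_5p* was at 188, 192, 151 and 197 CPM in alg-2(AEDH) embryos, against 124, 146, 77.8 and 62.9 CPM in wild-type embryos. The groups did not overlap, and the change was 0.83 (95% interval 0.27 to 1.39, adjusted p = 0.0853). With a term that separates replicates 1 and 2 from 3 and 4, whose library names follow another order, it was 0.90 (adjusted p = 0.00217). mir-797_3p was at 3.81, 3.61, 3.34 and 2.42 CPM, against 2.71, 1.26, 0.806 and 1.54 CPM, a change of 1.11 (adjusted p = 0.0853, and 0.0306 with that term). mir-797_5p* changed by -0.58, mir-250_3p by 0.08, mir-2_3p by -0.11 and mir-2_5p* by 0.05.

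Set directly against alg-1(AEDH), alg-2(AEDH) embryos had no member arm that passed (edgeR, 2.03% of all arms), 2 with an unadjusted p under 0.05 and 0 by DESeq2. mir-250_5p* differed by 0.62 (95% interval 0.06 to 1.17, adjusted p = 0.357), and the mir-797 ratio by -0.93 (limma, adjusted p = 0.155). mir-250_5p* passed with the replicate block (0.65, adjusted p = 0.0490), though replicate numbers did not pair these libraries (r -0.0971 to 0.665). It also passed with the term for replicates 1 and 2 (0.64, adjusted p = 0.0313). mir-797_3p differed by 0.81, mir-797_5p* by -0.14, mir-250_3p by 0.14, mir-2_3p by -0.01 and mir-2_5p* by 0.26. mir-2 passed in neither: its share was 8.94 ± 2.32% in alg-2(AEDH) embryos and 7.46 ± 2.12% in alg-1(AEDH) embryos, against 7.99 ± 1.22% in wild-type embryos (SD, n = 4 each).

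The largest change by genotype among the members was that of mir-797_5p* in ebax-1 adults. It was at 11.5, 16.1, 12.8 and 14.3 CPM in ebax-1 adults, against 1.84, 3.19, 4.27 and 1.17 CPM in wild-type adults. Every ebax-1 library was above every wild-type library, and the log2 fold change was 2.37 (SE 0.349, 95% interval 1.65 to 3.09, adjusted p = 2.13e-05). The arm ranked 156 of 276 in ebax-1 adults and 203 in wild-type adults. In this comparison 2 of 6 members passed, 1 in each direction, against 21.7% of all arms, 10.2% upward and 11.5% downward.

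The guide of mir-797 did not pass. mir-797_3p was at 6.82, 10.4, 8.78 and 7.53 CPM in ebax-1 adults, against 7.26, 5.88, 5.64 and 6.13 CPM in wild-type adults, a change of 0.43 (95% interval -0.04 to 0.90, adjusted p = 0.206). The star share of mir-797 was accordingly 62.8, 60.8, 59.3 and 65.6% in ebax-1 adults, against 20.2, 35.2, 43.1 and 16.0% in wild-type adults. The ratio rose by 2.10 (limma, 95% interval 1.22 to 2.99, adjusted p = 8.38e-04), where 10.9% of hairpins passed. The arm called star was thus the more abundant arm of mir-797 in ebax-1 adults and the less abundant in wild-type adults.

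The same arm differed where both groups carried the AEDH mutations. mir-797_5p* was at 9.33, 15.5, 17.5 and 11.3 CPM in ebax-1 with double AEDH, against 3.58, 2.12, 5.34 and 2.60 CPM in double AEDH. The change was 1.99 (95% interval 1.28 to 2.71, adjusted p = 2.45e-04), where 15.9% of arms passed, and the groups did not overlap. The ratio rose by 1.55 (adjusted p = 0.0183; 9.78% of hairpins passed), a call lost without double AEDH replicate 2 or 4 or ebax-1 with double AEDH replicate 2 or 3 (adjusted p 0.0615 to 0.0848). The interaction of the ebax-1 null with double AEDH was -0.38 for mir-797_5p* (95% interval -1.37 to 0.62, adjusted p = 0.978), and ebax-1 with double AEDH differed from ebax-1 alone by -0.03 (-0.68 to 0.63). Between ebax-1 with double AEDH and double AEDH, mir-797_3p changed by 0.46, mir-250_5p* by 0.06, mir-250_3p by -0.12, mir-2_3p by -0.03 and mir-2_5p* by 0.02.

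**Figure D4:**
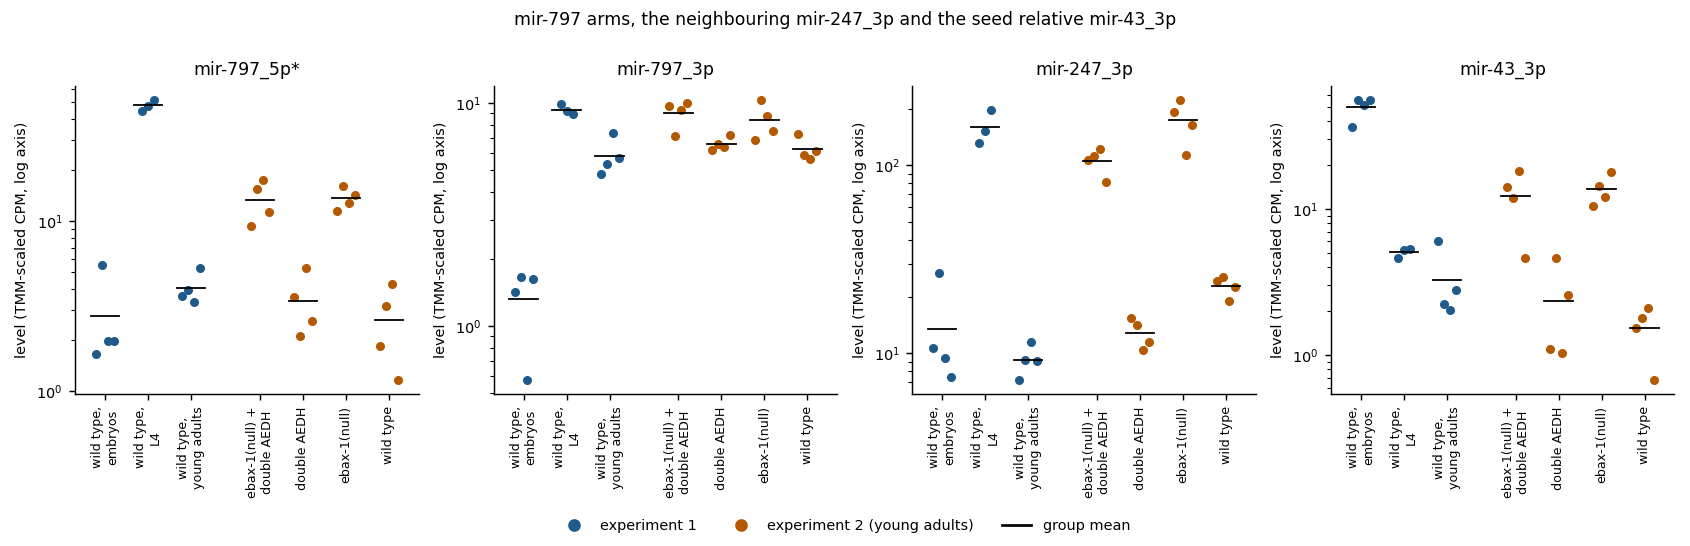
Levels in CPM on a log axis of mir-797_5p*, mir-797_3p, mir-247_3p and mir-43_3p in wild-type embryos, L4 larvae and young adults of experiment 1 and in the ebax-1 with double AEDH, double AEDH, ebax-1 and wild-type young adults of experiment 2; each point is 1 library and bars are group means. mir-797_5p* averages 13.7 CPM in ebax-1 adults and 2.62 CPM in wild-type adults of experiment 2, and 47.9 CPM in wild-type L4 larvae.

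The neighbour and the seed relative were also higher in ebax-1 adults. mir-247_3p, 70 bases from mir-797, was at 192, 224, 114 and 165 CPM in ebax-1 adults, against 24.3, 25.5, 18.9 and 22.5 CPM in wild-type adults, a change of 2.93 (adjusted p = 1.03e-10). mir-43_3p was at 10.5, 14.3, 12.0 and 17.8 CPM in ebax-1 adults, against 1.53, 1.79, 2.10 and 0.682 CPM in wild-type adults, a change of 3.14 (adjusted p = 1.19e-05). Which arm of mir-797 carries the family seed was not checked, and mir-797_5p*, its star by annotation, passed as given above. Of the 4 annotated guides compared here, the mir-43 guide passed and those of mir-2 (0.22), mir-250 (-0.04) and mir-797 (0.43) did not. This contrast depends on the scaling: with spike-in totals, where the median of all arms was 0.75, the changes were 3.93 for mir-43_3p, 1.02 for mir-2_3p (adjusted p = 0.0274), 0.71 for mir-250_3p (adjusted p = 0.0353) and 1.19 for mir-797_3p (adjusted p = 0.0108), and all 4 guides passed. The mir-2 star changed by 0.12. mir-43_5p*, the star of mir-43, changed by 1.70 (adjusted p = 0.153), with 2 wild-type libraries at 0 counts. mir-42_3p, 38 bases from mir-43, was at 1682 ± 441 CPM in ebax-1 adults and 129 ± 34.6 CPM in wild-type adults (SD, n = 4 each), a change of 3.71 (adjusted p = 1.19e-11).

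mir-797_5p* and mir-247_3p were both highest in L4 larvae among the wild-type stages. Of the 49 arms higher in wild-type L4 larvae than in young adults, 47 were tested in experiment 2, and 13 of them rose and 5 fell in ebax-1 adults. The 13 are 27.7% of the 47 and 56.5% of the 23 arms that rose, and they include mir-797_5p* and mir-247_3p themselves. Among all tested arms 10.2% rose and 11.5% fell. The arms most like mir-797_5p* over the 15 groups were let-7_3p* (r = 0.861), mir-247_3p (0.851) and mir-788_5p* (0.834), and those groups include the ebax-1 libraries. Of the 5 late-stage marker arms 1 rose in ebax-1 adults (lin-4_5p, 0.70), and their sum was at 63361 to 70987 CPM in ebax-1 adults, against 55683 to 73722 CPM in wild-type adults. None of the 7 embryonic markers passed, and their sum was at 29798 to 109373 CPM in ebax-1 adults, against 57111 to 73656 CPM in wild-type adults. The intestinal arm mir-60_3p fell by 0.49, and arms that mark muscle (-0.17), neurons (0.26) and glia (0.20) did not pass. With spike-in totals 0 arms were called lower in ebax-1 adults, so the fall of mir-60_3p and the 5 falls above lose their calls. The part of stage or tissue make-up in the change of mir-797 was not tested, and in whole animals fewer cells of a type cannot be told apart from less RNA per cell.

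mir-250_5p* was lower in ebax-1 adults, at 479, 432, 529 and 421 CPM, against 734, 635, 617 and 677 CPM in wild-type adults. The groups did not overlap. The change was -0.52 (95% interval -0.79 to -0.25, adjusted p = 0.00520), and mir-250_3p changed by -0.04. The call was lost without ebax-1 replicate 2 (-0.39, adjusted p = 0.0880) or 4 (-0.39, adjusted p = 0.0700). With spike-in scaling, which moved the median of all arms to 0.75 from -0.01, the change of mir-250_5p* was 0.23 (adjusted p = 0.413), so its direction depends on the scaling. The mir-250 share, which does not, was 51.8, 47.6, 50.5 and 45.7% in ebax-1 adults, against 56.8, 56.6, 56.4 and 58.9% in wild-type adults, and the ratio changed by -0.48 (limma, adjusted p = 0.167). The star of the neighbouring hairpin, mir-61_5p*, fell as well, to 139 ± 32.7 CPM in ebax-1 adults, against 246 ± 30.2 CPM in wild-type adults (SD, n = 4 each), a change of -0.83 (adjusted p = 6.10e-04). With spike-in scaling 0 of all tested arms were called lower in ebax-1 adults, so the call on mir-61_5p* depends on the scaling too.

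With double AEDH added to the ebax-1 null, mir-250_5p* was at 666, 610, 584 and 720 CPM, against 479, 432, 529 and 421 CPM in ebax-1 adults. The change was 0.47 (95% interval 0.20 to 0.74, adjusted p = 0.0188), where 11.1% of arms passed, and the groups did not overlap. Among all tested arms there, 13 of 90 stars rose (median change 0.09), against 3 of 136 arms not marked as stars (median -0.01). Another 3 stars and 6 of the other arms fell. The rise of mir-250_5p* did not pass without ebax-1 with double AEDH replicate 1, 2 or 4 or without ebax-1 replicate 2 or 4 (adjusted p 0.0533 to 0.101). With spike-in scaling it was 0.25 (adjusted p = 0.698). The mir-250 ratio rose by 0.55 (limma, adjusted p = 0.0812; 18.5% of hairpins passed). mir-250_3p changed by -0.06, mir-2_3p by -0.07, mir-2_5p* by 0.44 and mir-797_3p by 0.11. The interaction of double AEDH with the ebax-1 null was 0.58 for mir-250_5p* (edgeR, unadjusted p = 0.00445, adjusted p = 0.251; 0.885% of arms passed) and 0.68 for the ratio (limma, adjusted p = 0.686; 1.09% of hairpins passed).

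The Y47H10A.5 deletion, which removes a mir-243 site, gave no call on any arm. Against wild-type adults 0 members and 0% of all arms passed by edgeR, 1 member had an unadjusted p under 0.05 (mir-250_3p, 0.34) and DESeq2 called 0. The other arms changed by -0.26 (mir-250_5p*), 0.20 (mir-2_3p), 0.32 (mir-2_5p*), -0.25 (mir-797_3p) and 0.14 (mir-797_5p*). Between Y47H10A.5 deletion with double AEDH and double AEDH, 0 members and 0% of all arms passed, with 0 members at an unadjusted p under 0.05 and 0 by DESeq2. Changes there were -0.27 (mir-797_5p*), -0.24 (mir-797_3p), -0.02 (mir-250_3p), 0.07 (mir-2_3p), 0.20 (mir-2_5p*) and 0.23 (mir-250_5p*).

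Within the deletion background, groups with and without the AEDH mutations carry different deletion alleles, so allele cannot be told apart from those mutations. The mir-250 ratio was higher in the group with them. The star share was 55.0, 59.6, 65.9 and 56.3% in the deletion with double AEDH, against 55.1, 53.6, 39.6 and 39.8% in the deletion alone, and the groups overlapped by 1 library. The ratio rose by 0.72 (limma, 95% interval 0.27 to 1.16, adjusted p = 0.0312), where 12% of hairpins passed. The call was lost without replicate 2 or 3 of the deletion with double AEDH or replicate 3 or 4 of the deletion (adjusted p 0.0655 to 0.109). By level, mir-250_5p* was at 708, 756, 812 and 611 CPM in the deletion with double AEDH, against 641, 626, 490 and 474 CPM in the deletion, a change of 0.37 (adjusted p = 0.103). There 0 members passed by edgeR, against 7.08% of all arms, 2 had an unadjusted p under 0.05 and DESeq2 called 1. mir-250_3p changed by -0.35, mir-2_3p by 0.05, mir-2_5p* by 0.42, mir-797_3p by 0.09 and mir-797_5p* by -0.06. The interaction of double AEDH with the deletion was 0.84 for the mir-250 ratio (limma, adjusted p = 0.438) and 0.48 for mir-250_5p* (edgeR, adjusted p = 0.574).

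Over the 8 comparisons of an AEDH group with its own background or wild type in 3 experiments, mir-250_5p* had its highest changes in double AEDH embryos (0.86) and alg-2(AEDH) embryos (0.83) and its lowest in the double AEDH adults of experiment 2 (-0.11), and in alg-1(AEDH) embryos it was 0.21. The alg-1(AEDH) and alg-2(AEDH) comparisons share their wild-type libraries. The adults of experiment 2 were the libraries in which the mir-250 star outnumbered the guide in the wild type. mir-2 passed by neither arm (edgeR) nor ratio (limma) in any comparison of genotypes fitted on all libraries without the replicate block, and the levels of its guide lay between 190 and 443 CPM in all 58 libraries.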

How the data were processed

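Small RNA from whole C. elegans was made into libraries with a NEBNext kit, size-selected after reverse transcription, per the labels' protocols. The submitters' processing notes name HTSeq 0.13.5, SAMtools 1.13, Bowtie2 2.4.4, cutadapt 3.4 and DESeq2, without roles or settings. The authors deposited expected counts per arm: 5.67% of arm values (10.3% of member values) are not whole, where a read was shared, and were rounded. Reads assigned to no feature (11.9 to 44.6% of each library) and spike-ins stayed out of library sizes. The annotation header names MirGeneDB and ce11; gene context came from the Ensembl annotation of WBcel235.

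Levels are CPM scaled by TMM within each experiment; folds come from fits that may be scaled over fewer libraries, so they can differ slightly from ratios of levels. Tests of arms ran in R 4.3.3 with the robust quasi-likelihood fit of edgeR 4.0.16 after filterByExpr (minimum count 10). Star-to-guide ratios, log2 of counts plus 0.5, were tested with limma 3.58.1 (robust, with a trend on mean count) where both arms averaged 10 counts or more. Experiment 1 genotypes were fitted within stage, experiments 2 and 3 over all their groups. Benjamini-Hochberg adjustment ran over all arms or hairpins, at 0.05. Both procedures were checked without the replicate block on simulated independent libraries with the same spread for all arms. That check does not cover paired libraries or the block fits.

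DESeq2 1.42.0, other scalings and filters, a variance trend on the mean ratio (added after seeing the data) and fits without 1 library were alternatives. Replicate numbers were taken to pair libraries where same-numbered libraries deviated together in every pair (r over 0.1): double AEDH against wild type in embryos (0.664 to 0.866), L4 larvae (0.269 to 0.707) and young adults of experiments 1 (0.557 to 0.765) and 2 (0.319 to 0.579), the deletion with double AEDH against the deletion (0.289 to 0.574) and against double AEDH (0.263 to 0.578), and alg-1(AEDH) against wild type (0.332 to 0.769).

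Every member arm was named in the comparisons of genotypes, whether or not it passed, and the most alike arms are the 3 of highest r. Members, lists and tests were chosen with earlier results of these data known. Counting intervals and floors cover counting error only, since reads carry no molecular identifiers.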

Additional observations from a re-analysis of the deposited data

Results flagged for a closer look

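Of 117 groups of 4 libraries and a measure that were examined, 8 held a library far from the other 3 by Dixon's criterion, and chance gives about 1 in 20. mir-2_3p was at 443 CPM in double AEDH embryo replicate 1, where the others were at 310 to 329 CPM. mir-797_5p* was at 5.54 CPM in wild-type embryo replicate 2, where the others were at 1.64 to 1.98 CPM, and the same library held mir-247_3p at 26.6 CPM, against 7.48 to 10.6 CPM. mir-2_3p was at 190 CPM in ebax-1 with double AEDH replicate 4, where the others were at 314 to 324 CPM. mir-250_3p was at 559 CPM in wild-type adult replicate 1 of experiment 2, where the others were at 472 to 486 CPM. The mir-250 star share was 58.9% in wild-type adult replicate 4 of experiment 2, where the others were at 56.4 to 56.8%. mir-2_3p was at 261 CPM in alg-1(AEDH) embryo replicate 2, where the others were at 233 to 234 CPM, and mir-797_5p* was at 1.39 CPM in alg-1(AEDH) embryo replicate 1, where the others were at 2.37 to 2.53 CPM. The mir-250 star share was 43.2% in alg-2(AEDH) embryo replicate 4, where the others were at 38.7 to 39.3%.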

How the results depend on the processing

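In comparisons of genotypes, numbers of member arms and ratios called moved as follows, with causes not tested. With the replicate block, double AEDH embryos had 2 ratios in place of 0, and double AEDH adults of experiment 1 had 1 arm and 1 ratio. The block also gave 1 arm and 1 ratio in the differences of L4 larvae and of young adults from embryos, and 1 arm in alg-2(AEDH) against wild type and against alg-1(AEDH), where the numbers did not pair the libraries (r -0.0453 to 0.681 and -0.0971 to 0.665); it moved no other number of members called. DESeq2 gave 1 arm in double AEDH adults of experiment 1, in the deletion with double AEDH against the deletion and in alg-2(AEDH). Total counts gave 1 arm in the last 2 of these. Spike-in totals gave 0 arms in double AEDH embryos, 4 in ebax-1 adults, where mir-250_3p (0.71) and mir-250_5p* (0.23) reversed, and 0 in ebax-1 with double AEDH against ebax-1, as did no filter. The trend on the mean ratio gave 0 ratios in the deletion with double AEDH against the deletion. In alg-2(AEDH) against wild type, the term for replicates 1 and 2 gave 2 arms and a mean count of at least 50 gave 1 ratio; against alg-1(AEDH) that term gave 1 arm. Leaving out 1 library gave 0 to 1 arms in double AEDH embryos and adults of experiment 1 and in ebax-1 with double AEDH against ebax-1, 1 to 2 in ebax-1 adults and 0 to 1 in alg-2(AEDH). Ratios called were 0 to 1 in double AEDH embryos, in ebax-1 with double AEDH against ebax-1 and against double AEDH and in the deletion with double AEDH against the deletion, and 1 to 2 in alg-2(AEDH). Over all alternatives, arms called among all tested were 24 (12 to 62) in double AEDH embryos, 11 (2 to 27) in L4 larvae, 3 (0 to 16) in adults of experiment 1, 18 (4 to 22) in those of experiment 2, 49 (28 to 107) in ebax-1, 25 (11 to 34) and 36 (19 to 44) in ebax-1 with double AEDH against ebax-1 and against double AEDH, 16 (2 to 20) in the deletion with double AEDH against the deletion, 1 (1 to 10) in alg-1(AEDH), and 8 (5 to 35) and 4 (2 to 16) in alg-2(AEDH) against wild type and alg-1(AEDH). Ratios called among all hairpins were 20 (14 to 51), 13 (1 to 20) and 5 (4 to 21) in double AEDH embryos, L4 larvae and adults of experiment 1, 17 (10 to 18) in ebax-1 with double AEDH against ebax-1, 8 (2 to 13) in alg-1(AEDH), and 31 (18 to 40) and 9 (2 to 15) in alg-2(AEDH) against wild type and alg-1(AEDH). Between wild-type stages, DESeq2 added mir-2_3p in young adults against embryos (5 arms in place of 4). Total counts (0.85, adjusted p = 0.0141) and leaving out wild-type embryo replicate 2 added mir-797_5p* there, and spike-in totals added mir-2_5p* (adjusted p = 0.0498) and mir-797_3p (adjusted p = 0.0195) in young adults against L4 larvae. Spike-in scaling was not run in experiment 3, whose libraries hold 16 to 48 spike-in reads. Low counts limit mir-797 in embryos.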
